A study of Mus musculus with 8 samples.

Results

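Common gamma chain cytokine signalling was followed here through 10 genes (Il2rg, Il2rb, Il4ra, Il21r, Jak1, Jak3, Stat5a, Stat5b, Stat6 and Cish), taken as all probe sets whose array annotation gives 1 of these symbols as the only gene. The rule found 9 of the 12393 genes on the array, with 17 of the 22626 tested probe sets (each the combined signal of several short probes against a transcript). Il2rg, which encodes the shared gamma chain itself, had 0 such probe sets and was not analysed here, and 2 further probe sets annotated to both Jak3 and its chromosomal neighbour Insl3 were left out by the rule. RNA came from splenic CD4 T cells isolated by FACS. The donors, females 8 to 12 weeks old, were C57BL/6 (WT) or carried an Ahr knockout backcrossed to C57BL/6 (KO), and thus lacked the aryl hydrocarbon receptor, which binds dioxins and then acts on transcription. They were killed 24 h after an intraperitoneal injection of 10 µg/kg TCDD (a dioxin that activates this receptor) in corn oil, or of DMSO solvent in corn oil. Genotype and treatment gave 4 groups with 2 arrays apiece, each hybridised with RNA pooled from 4 animals and described by the submitters as biological duplicates. For replicate 1 of WT TCDD the labels conflict, since its description says knockout and its title, source and strain say wild type; the latter were followed.

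Interleukins 2, 4, 7, 9, 15 and 21 signal through receptors that share the common gamma chain and add a chain of their own, such as Il2rb (for interleukins 2 and 15), Il4ra or Il21r. The kinase Jak1 binds these private chains and Jak3 binds the gamma chain. Once a cytokine brings the chains together, the kinases phosphorylate STAT transcription factors, mainly Stat5a and Stat5b after interleukins 2, 7 and 15 and Stat6 after interleukin 4. Activated STAT5 induces Cish, a member of the SOCS family that damps the signal, so Cish is commonly read as a sign of STAT5 activity. In T cells the pathway is known for survival, proliferation and helper cell differentiation.

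The DNA letters through which STAT5 is known to act, TTCNNNGAA (which reads the same on both strands), were searched for in the RefSeq windows from 250 bases before to 50 bases after each gene start (assembly GRCm38.p6). Of 32851 windows, 8.3% held the motif and 0.457% held at least 2 copies. Windows were available for 9 of the 10 genes, and Cish alone among these 9 held the motif, with 2 copies that begin 0 and 11 bases after its annotated start. The related spacing with 4 bases between TTC and GAA, preferred by STAT6, was in 6.95% of windows and in 0 of the 9 genes. The Cish stretch is shown because Cish is commonly read as a sign of STAT5 activity. Beside it are those of the cytokine Il4 and the receptor chain Il7r, whose levels are given further below. Each is 30 bases, 5′ to 3′ on the gene's strand, with the motif in capitals (Cish at chr9:107296654-107296683, plus strand; Il4 at chr11:53617324-53617353, minus strand; Il7r at chr15:9530000-9530029, minus strand). A match to these letters is a description of the sequence and no evidence of binding.
Cish: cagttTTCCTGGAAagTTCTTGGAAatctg
Il4: cagttcctgttTTCATGGAAacacaccact
Il7r: agttcaggagcTTCAGGGAAtaccaagatg

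Values below are log2 expression levels made by the authors with RMA, and differences are KO minus WT over 4 arrays of each genotype, with limma's test and Benjamini-Hochberg (BH) adjustment over all 22626 probe sets. A probe set was called at an adjusted p under 0.05. The arrays of a group correlated at 0.967 to 0.992. The log2 difference between the 3′ and 5′ actin control probe sets can reflect RNA integrity and also the amplification of the RNA before labelling. It was 3.48 to 3.82 on the KO arrays. It was 2.90 and 3.30 on the WT DMSO and WT TCDD arrays numbered 2, and 3.70 and 4.56 on the WT DMSO and WT TCDD arrays numbered 1. On the first principal component (52.1% of the variance) the WT arrays numbered 2 were likewise separate, at 49.2 and 40.4. The WT arrays numbered 1 read 9.10 (DMSO) and −2.04 (TCDD), and the KO arrays −36.2 to −5.20. All KO arrays thus lay below all WT arrays, and WT TCDD replicate 1, whose labels conflict, was the WT array nearest to them. For Ahr itself, 1 probe set read 0.53 higher in KO and the other 0.04 higher, and neither passed (limma, BH adjusted p = 0.0658 and 0.906). The labels do not place their probes relative to the deletion, so they do not check the genotype labels. The T cell markers Cd3e (9.11 to 9.64) and 1 of the Cd4 probe sets (8.06 to 8.73) were well expressed on all 8 arrays.

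Most of the pathway's measured transcripts did not differ detectably between KO and WT cells. A single probe set of the signal transducer Stat6 rose in KO, by 0.53 on the log2 scale (1.45-fold), and the other 16 did not pass. That is 1 of 17 probe sets, or 5.88%, higher and 0 lower, where 2.79% of all tested probe sets were called (1.59% higher and 1.2% lower), so a share this close to the background is no result about the pathway. The median difference of the 17 was 0.13, with 12 above 0 and 5 below, beside a median of −0.01 (−0.005 before rounding) over all probe sets. KO and WT arrays did not overlap in 4 of the 17, 3 of them higher in KO (Stat6, Jak3 and Il4ra, 1 probe set each) and 1 lower (Jak1), where 12.3% of all probe sets did not overlap (5.67% higher, 6.67% lower). The cytokine-inducible Cish, commonly read as a sign of STAT5 activity, averaged 7.97 in both genotypes. STAT5 activity itself was not measured.

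**Figure D1:**
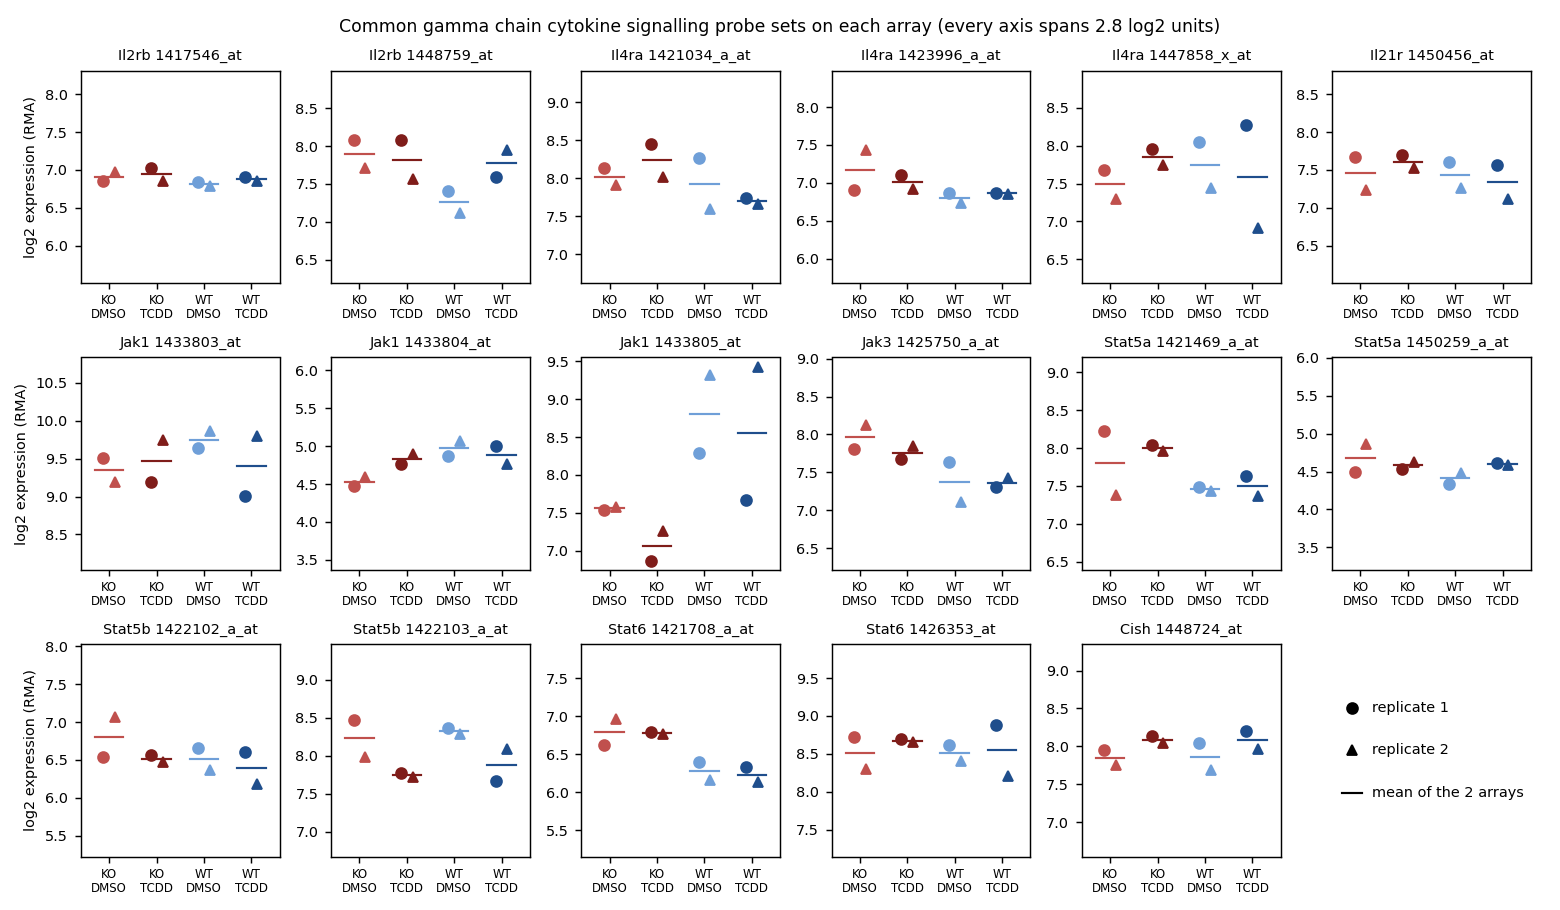
Log2 expression of the 17 probe sets on each of the 8 arrays, with circles for replicate 1, triangles for replicate 2 and a line for the mean of the 2 arrays of each group; each vertical axis spans 2.8 log2 units. In Stat6 1421708_a_at the KO arrays (6.62 to 6.97) lie above the WT arrays (6.13 to 6.40), and in Jak1 1433805_at the WT arrays numbered 2 (9.32 and 9.43) lie above all others.

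Among the receptor chains, none of the 6 probe sets passed. Il2rb, the beta chain of the receptors for interleukins 2 and 15, had 2. On 1448759_at it read 8.08 and 7.71 in KO DMSO (replicates 1 and 2, in this order throughout), 8.08 and 7.56 in KO TCDD, 7.41 and 7.11 in WT DMSO, and 7.59 and 7.95 in WT TCDD. The WT DMSO arrays were the lowest, and WT TCDD overlapped with KO. The difference was 0.34 (SE 0.19, 95% interval −0.09 to 0.78; limma, BH adjusted p = 0.366). The other Il2rb probe set was nearly flat, at 6.85 to 7.03 in KO and 6.79 to 6.91 in WT (difference 0.08, 95% interval −0.09 to 0.24).

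Il4ra, which binds interleukin 4 and pairs with the gamma chain, had 3 probe sets. On 1423996_a_at the KO arrays read 6.90, 7.43, 7.10 and 6.92 (DMSO 1 and 2, TCDD 1 and 2) and the WT arrays 6.87, 6.73, 6.87 and 6.85. All 4 KO arrays lay above all WT arrays, narrowly, and KO DMSO replicate 2 was the highest. The difference of 0.26 (SE 0.12) missed the threshold (limma, BH adjusted p = 0.276). A two-sided exact permutation test gave 0.0286, the least that 70 arrangements can give. Any probe set without overlap gets this value, as would 12.3% of all probe sets, so it only restates the lack of overlap. The other Il4ra probe sets differed by 0.31 (1421034_a_at, 95% interval −0.08 to 0.70) and by 0.00 (1447858_x_at, −0.65 to 0.65). The last, whose suffix marks probes that may also bind other transcripts, was the most scattered in WT, from 6.91 on WT TCDD replicate 2 to 8.27 on WT TCDD replicate 1. Il21r, the interleukin 21 receptor chain, is the next protein-coding gene to Il4ra on chromosome 7. It read 7.24 to 7.70 in KO and 7.12 to 7.61 in WT, with a difference of 0.14 (SE 0.14; limma, BH adjusted p = 0.644).

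None of the 4 Janus kinase probe sets among the members passed. Jak3, the kinase of the gamma chain, read 7.81 and 8.12 in KO DMSO, 7.67 and 7.85 in KO TCDD, 7.64 and 7.11 in WT DMSO, and 7.30 and 7.42 in WT TCDD. All KO arrays lay above all WT arrays, with KO TCDD replicate 1 and WT DMSO replicate 1 almost touching. KO averaged 7.86 ± 0.19 and WT 7.37 ± 0.22 (SD, 4 arrays per genotype), a difference of 0.49 (SE 0.13, 95% interval 0.19 to 0.80; limma, BH adjusted p = 0.0875, and 0.066 to 0.685 over 19 alternatives, none of which called it). The difference was 0.59 between DMSO arrays and 0.40 between TCDD arrays.

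Jak1, the kinase of the private chains, had 3 probe sets, with differences over all 8 arrays below 0 but of unlike size. On 1433805_at it read 7.54 and 7.58 in KO DMSO, 6.87 and 7.26 in KO TCDD, 8.29 and 9.32 in WT DMSO, and 7.67 and 9.43 in WT TCDD. All KO arrays lay below all WT arrays, but the WT arrays numbered 2 were more than 1 log2 unit above those numbered 1. KO averaged 7.31 ± 0.33 and WT 8.68 ± 0.85 (SD, 4 arrays per genotype). The difference of −1.36 (SE 0.38) was short of the threshold (limma, BH adjusted p = 0.0925). The exact permutation test gave 0.0286, as it does for any probe set whose groups do not overlap.

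The WT arrays numbered 2 also had the lowest 3′ to 5′ actin differences. Without both of them the Jak1 difference was −0.67 (limma, BH adjusted p = 0.301), and with the actin difference as a covariate it was −1.32 and was called (limma, BH adjusted p = 0.0116). It was called with array weights too (limma, BH adjusted p = 0.0389). Over all probe sets the actin covariate gave 1834 calls and array weights 1604, against 631 without either. The Jak1 difference was also called, at −1.70, when WT TCDD replicate 1, whose labels conflict, was left out (limma, BH adjusted p = 0.0391). The other Jak1 probe sets differed by −0.17 (1433803_at, 9.19 to 9.74 in KO and 9.01 to 9.86 in WT) and by −0.25 (the dim 1433804_at, 4.47 to 4.89 in KO and 4.77 to 5.07 in WT), and their groups overlapped. Jak1 1433803_at was also highest on the WT arrays numbered 2 (9.86 and 9.80), and it correlated with 1433805_at at 0.66. Without both of those arrays the difference of 1433803_at was 0.08.

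**Figure D2:**
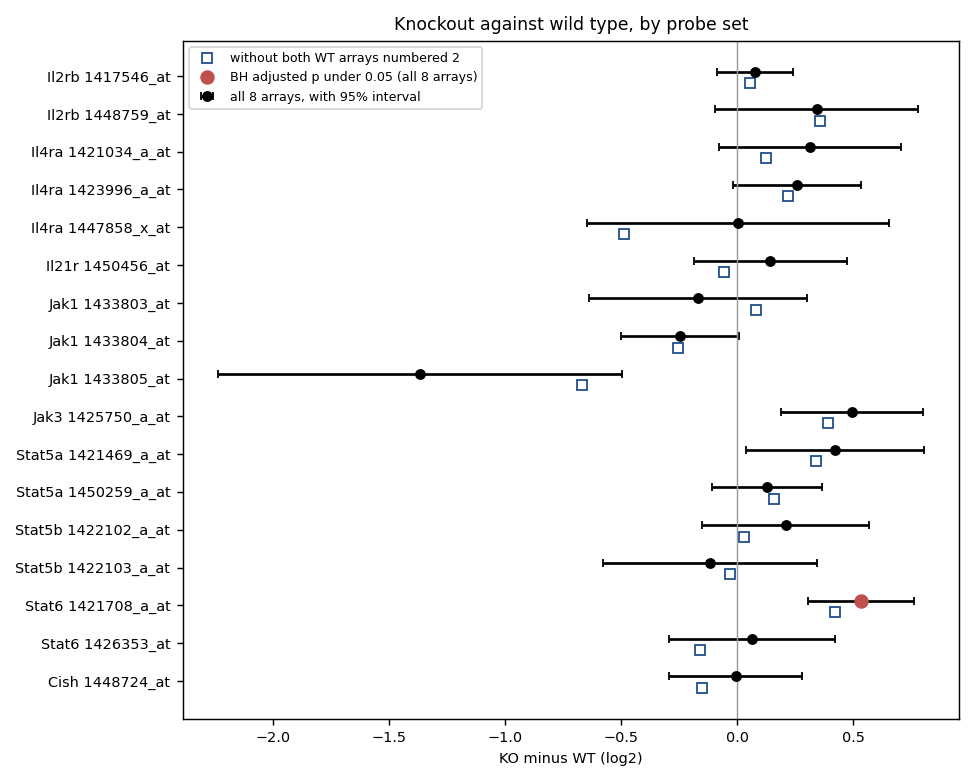
KO minus WT difference in log2 for each of the 17 probe sets, with 95% intervals from limma over all 8 arrays (filled circles) and the same difference without both WT arrays numbered 2 (open squares). The called Stat6 probe set (0.53, and 0.42 without those arrays) is in red, and Jak1 1433805_at moves from −1.36 to −0.67.

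Of the STAT genes, only Stat6, the transducer of interleukin 4, had a called probe set. Stat6 1421708_a_at read 6.62 and 6.97 in KO DMSO, 6.79 and 6.77 in KO TCDD, 6.40 and 6.16 in WT DMSO, and 6.33 and 6.13 in WT TCDD. All 4 KO arrays lay above all WT arrays, within each treatment and across both. KO averaged 6.79 ± 0.14 and WT 6.25 ± 0.13 (SD, 4 arrays per genotype). The rise was 0.53 (SE 0.10, 95% interval 0.31 to 0.76) and was called (limma, BH adjusted p = 0.0362). The exact permutation test gave 0.0286, which again only restates the lack of overlap.

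The size of this Stat6 difference was 0.52 between DMSO arrays and 0.55 between TCDD arrays, and it ran from 0.42 to 0.59 over 19 alternatives. Its call was lost in 9 of 19 alternatives. Among them was the model of 4 group means, which takes the spread within each treatment (limma, BH adjusted p = 0.0967). The call was also lost on leaving out KO TCDD replicate 1 (0.104), KO TCDD replicate 2 (0.109), KO DMSO replicate 2 (0.0565), WT TCDD replicate 2 (0.0927), WT DMSO replicate 2 (0.0952) or both WT arrays numbered 2 (0.196, with a difference of 0.42). The brighter Stat6 probe set, 1426353_at, did not share the rise. It read 8.72 and 8.30 in KO DMSO, 8.69 and 8.65 in KO TCDD, 8.62 and 8.40 in WT DMSO, and 8.88 and 8.21 in WT TCDD, so that WT held both the highest and the lowest array. Its difference was 0.06 (95% interval −0.29 to 0.42; limma, BH adjusted p = 0.867). Over the 8 arrays the 2 Stat6 probe sets correlated at only 0.16.

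Stat5a and Stat5b encode closely related transducers from neighbouring genes on chromosome 11, next to Stat3. Stat5a 1421469_a_at read 8.22 and 7.38 in KO DMSO, 8.04 and 7.96 in KO TCDD, 7.49 and 7.43 in WT DMSO, and 7.63 and 7.37 in WT TCDD. Of the KO arrays, 3 lay above all WT arrays, and KO DMSO replicate 2 lay within the WT range. The difference of 0.42 (SE 0.17) did not pass (limma, BH adjusted p = 0.204), but without KO DMSO replicate 2 it was 0.59 and was called (limma, BH adjusted p = 0.0357). The dim Stat5a probe set 1450259_a_at (4.34 to 4.87 over all arrays) differed by 0.13, and KO DMSO replicate 2, the lowest KO array on the first, was the highest on this set.

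Stat5b showed no called difference on either of its probe sets. On 1422102_a_at the KO arrays ranged from 6.47 to 7.07 and the WT arrays from 6.18 to 6.66 (difference 0.21, 95% interval −0.15 to 0.57). On 1422103_a_at they ranged from 7.72 to 8.47 and from 7.67 to 8.37 (difference −0.12, 95% interval −0.58 to 0.34).

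Cish, the STAT5-induced feedback inhibitor whose start holds the paired TTCNNNGAA motif shown above, read 7.95 and 7.75 in KO DMSO, 8.13 and 8.04 in KO TCDD, 8.04 and 7.69 in WT DMSO, and 8.20 and 7.97 in WT TCDD. The genotypes overlapped almost fully, with means of 7.97 ± 0.16 for KO and 7.97 ± 0.21 for WT (SD, 4 arrays per genotype). The difference was −0.01 with a 95% interval from −0.29 to 0.28 (limma, BH adjusted p = 0.982), so a genotype difference above 0.29 in either direction lies outside the interval.

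Probe sets of the same gene often disagreed. Over the 8 arrays, the 10 pairs of probe sets within a gene correlated at −0.19 to 0.66 with a median of 0.26, and 3 pairs were below 0 (Il4ra, Stat5a and Stat5b). These correlations are a description over arrays that differ in genotype and in the 3′ to 5′ actin difference, and neither was adjusted for. The 2 Stat5a probe sets, 1 of them dim, and the 2 Stat6 probe sets thus did not rise and fall together over these arrays. Where levels differ this little between arrays, a low correlation cannot tell whether 2 probe sets measure the same transcripts. In bulk RNA, a change in the share of cells that express a gene and a change in RNA per cell cannot be told apart.

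**Figure D3:**
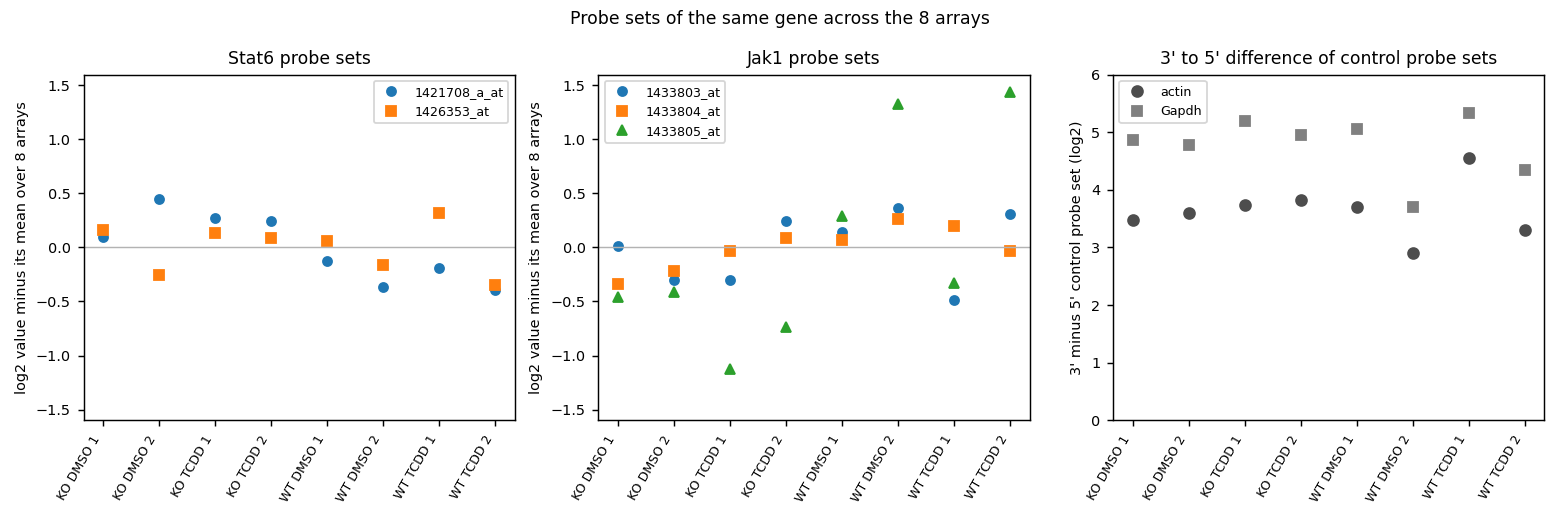
Left and middle, log2 value of each Stat6 and Jak1 probe set minus its own mean over the 8 arrays; right, log2 difference between the 3′ and 5′ control probe sets of actin and Gapdh on the same arrays. The 2 Stat6 probe sets follow different patterns. Jak1 1433805_at and 1433803_at both read highest on the 2 WT arrays numbered 2, where the actin difference is lowest (2.90 and 3.30).

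Markers of other cell types that use these receptors were read beside these results. Of all tested probe sets, 1.59% rose in KO and 1.2% fell. Of 15 probe sets of myeloid and dendritic cell markers (11 of 12 listed genes measured), 6 rose in KO and 0 fell, with a median difference of 0.75. The log2 of their summed level was 11.41 to 12.20 in KO and 10.49 to 10.82 in WT, without overlap, as for Stat6 1421708_a_at and Jak3. Of 20 B cell marker probe sets (8 of 9 genes), 1 rose (Ighm) and 0 fell, with a median of −0.01. Their summed level was 12.67 to 13.31 in KO and 12.09 to 12.65 in WT, also without overlap. The immunoglobulin heavy chain gene Ighm was the brightest of them, at 12.01 to 12.69 in KO and 11.22 to 11.93 in WT on its brightest probe set, and the called Ighm probe set differed by 1.19 (limma, BH adjusted p = 0.0347). Of the defining B cell genes, Cd79b read 6.36 to 7.80 in KO and 5.56 to 6.84 in WT, Cd79a 5.41 to 5.79 and 5.61 to 5.73, and Pax5 5.09 to 5.28 and 5.04 to 5.36, and none of these 3 was called.

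NK and CD8 T cell markers (9 of 10 genes) belong to cells in which Il2rb is abundant. Of their 12 probe sets, 1 rose (Nkg7) and 0 fell, beside 1.59% and 1.2% of all tested probe sets. Their summed level overlapped, at 10.29 to 10.93 in KO and 9.99 to 10.50 in WT, as did those of T cell markers (12.79 to 12.94 and 12.54 to 13.07, 0 of 13 probe sets called) and erythroid markers (7.69 to 8.30 and 7.51 to 7.88, 0 of 5 called). RMA gives no zeros, so no marker can be said to be at 0. The part of other cell types in the Stat6 and Jak3 values was not tested.

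Around the members, 6 further lists of the pathway held 127 probe sets of 63 genes. Of the 127, 0 rose and 1 fell in KO, where 1.59% of all tested probe sets rose and 1.2% fell. The median difference of the 127 was 0.00 (0.005 before rounding). The call was Pik3r1, a regulatory subunit of phosphoinositide 3-kinase, on 1425514_at: 8.53 and 7.51 in KO DMSO, 8.22 and 8.15 in KO TCDD, 8.93 and 9.36 in WT DMSO, and 9.26 and 9.17 in WT TCDD. All KO arrays lay below all WT arrays. Pik3r1 fell by 1.08 (SE 0.20; limma, BH adjusted p = 0.0362).

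The Pik3r1 call was lost in 9 of 19 alternatives, including the model of 4 group means (limma, BH adjusted p = 0.0951). It was also lost without KO TCDD replicate 1 (0.0928), KO TCDD replicate 2 (0.108), WT TCDD replicate 1 (0.0531), WT TCDD replicate 2 (0.0893) or WT DMSO replicate 2 (0.0974). The other 2 Pik3r1 probe sets differed by 0.04 and −0.15. Pik3r1 belongs to the list of the PI3K and MAPK branch, in which 14 of 20 genes were measured by 28 probe sets, with a median of −0.04.

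Of the gamma chain cytokines (7 probe sets of 6 genes, median 0.02), 0 passed. Il4, whose start holds the single motif shown above, read 5.89 to 6.24 in KO and 5.22 to 6.00 in WT (difference 0.40; limma, BH adjusted p = 0.23), and Il2 5.14 to 5.33 and 4.85 to 5.32 (0.12; adjusted p = 0.586). Of the partner receptor chains (13 probe sets of 6 genes, median 0.00), 0 passed. Il7r, the interleukin 7 receptor chain of resting T cells, read 10.42 to 10.78 in KO and 10.80 to 11.63 in WT on its brighter probe set. Its arrays narrowly did not overlap, and the difference was −0.64 (SE 0.17; limma, BH adjusted p = 0.0794). Over 19 alternatives it ran from −0.93 (TCDD arrays alone) to −0.35 (DMSO arrays alone). Leaving out WT DMSO replicate 1 gave the only call, 1 of 19 (limma, BH adjusted p = 0.0316). When the arrays numbered 2 of WT were dropped it was −0.41 (limma, BH adjusted p = 0.322). The other Il7r probe set overlapped and differed by −0.65 (limma, BH adjusted p = 0.292). In WT it read 7.29 (DMSO) and 7.04 (TCDD) on the arrays numbered 2, and 5.83 and 6.08 on those numbered 1. Il2ra, the activation-induced alpha chain, read 4.83 to 5.05 over all arrays (difference 0.10; adjusted p = 0.458).

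The other JAK and STAT genes (9 probe sets of 5 genes, median 0.12) gave 0 calls, with Tyk2 0.47 higher (limma, BH adjusted p = 0.102) and Jak2 on 1421066_at 0.37 lower (adjusted p = 0.163). The other Jak2 probe set read 0.18 higher. Tyk2 was called in 2 of 19 alternatives, with array weights (limma, BH adjusted p = 0.0249) and with the actin covariate (0.0410). The feedback inhibitors (36 probe sets of 17 genes, median −0.03) also gave 0 calls. Their smallest p-values belonged to Pias1, a STAT inhibitor (4.13 to 4.75 in KO, 5.07 to 5.92 in WT, difference −0.90; limma, BH adjusted p = 0.053), and to Socs2, a STAT5-induced relative of Cish (6.39 to 6.58 and 5.76 to 6.17, difference 0.46; adjusted p = 0.0549). Neither overlapped between genotypes. Pias1, which is dim and so absent from the fit without dim probe sets, was called in 4 of 18 alternatives, and Socs2 in 4 of 19. Without both WT arrays numbered 2 neither was called (limma, BH adjusted p = 0.172 for Pias1 and 0.164 for Socs2). Both were called with array weights (limma, BH adjusted p = 0.0188 for Pias1 and 0.0224 for Socs2) and with the actin covariate (0.0217 and 0.0413). Array weights gave 1604 calls over all probe sets and the actin covariate 1834, against 631 without either. Pias1 was also called with trend and robust settings (0.0413) and without WT TCDD replicate 1 (0.0489), and Socs2 after a further quantile normalization (0.0407) and without dim probe sets (0.0497). Among STAT5 and STAT6 responsive genes (36 probe sets of 16 genes, median 0.03), 0 passed; Socs2 led this list too, followed by the survival kinase Pim2 (−0.42; adjusted p = 0.111).

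TCDD left the pathway without a called probe set in either genotype. In WT, 0 of 17 were called (0% of all probe sets), with differences from −0.45 to 0.51 and a median of −0.05. In KO, 0 of 17 were called (0% of all probe sets), with differences from −0.49 (Jak1 1433805_at) to 0.36 and a median of 0.04 (0.035 before rounding). None of the 17 reached an unadjusted p under 0.05 in either genotype, where 2.79% of all probe sets did in WT and 1.69% in KO. With 2 arrays a group the 95% intervals were wide, from −1.90 to 1.42 at their outermost in KO and from −1.66 to 1.15 in WT.

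Cish was 0.22 higher after TCDD in WT (95% interval −0.17 to 0.61; limma, BH adjusted p = 0.997) and 0.23 higher in KO (−0.15 to 0.62; adjusted p of 1 after rounding). The KO TCDD arrays (8.13 and 8.04) lay above the KO DMSO arrays (7.95 and 7.75), while the WT groups overlapped. The difference between these effects, WT minus KO, was −0.01 (SE 0.23; limma, BH adjusted p = 0.998). For the interaction, 0 of 17 probe sets were called (0% of all probe sets), and the values ran from −0.52 (Il4ra 1447858_x_at) to 0.58 (Il2rb 1448759_at).

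Stat5b 1422103_a_at was chosen for description once its TCDD values were known. It read 8.47 and 7.99 in KO DMSO, 7.77 and 7.72 in KO TCDD, 8.37 and 8.29 in WT DMSO, and 7.67 and 8.09 in WT TCDD. The TCDD arrays lay below the DMSO arrays of the same genotype without overlap in both genotypes. This held for 1 of the 17 members and for 0.552% of all probe sets. The reverse, TCDD above DMSO without overlap in both genotypes, held for 0 of the 17 and for 3% of all probe sets. The effect on Stat5b 1422103_a_at was −0.45 in WT (95% interval −0.94 to 0.04) and −0.48 in KO (−0.97 to 0.00), with unadjusted p-values of 0.0648 and 0.0507 from limma. Averaged over both genotypes, a comparison added after seeing the data, it was −0.47 (SE 0.14; limma, unadjusted p = 0.0154, BH adjusted p = 0.999). In that comparison 1 of the 17 probe sets had an unadjusted p under 0.05, as did 1.65% of all probe sets, and 0 were called (0% of all probe sets). The other Stat5b probe set averaged −0.21 (SE 0.16). T cell markers also read lower after TCDD in WT, with 11 of 13 probe sets below 0, a median difference of −0.32, 4 at an unadjusted p under 0.05 and 0 called. In KO 6 of the 13 were below 0, with a median of 0.00, 1 at an unadjusted p under 0.05 and 0 called. The part of these markers in the Stat5b value was not tested.

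**Figure D4:**
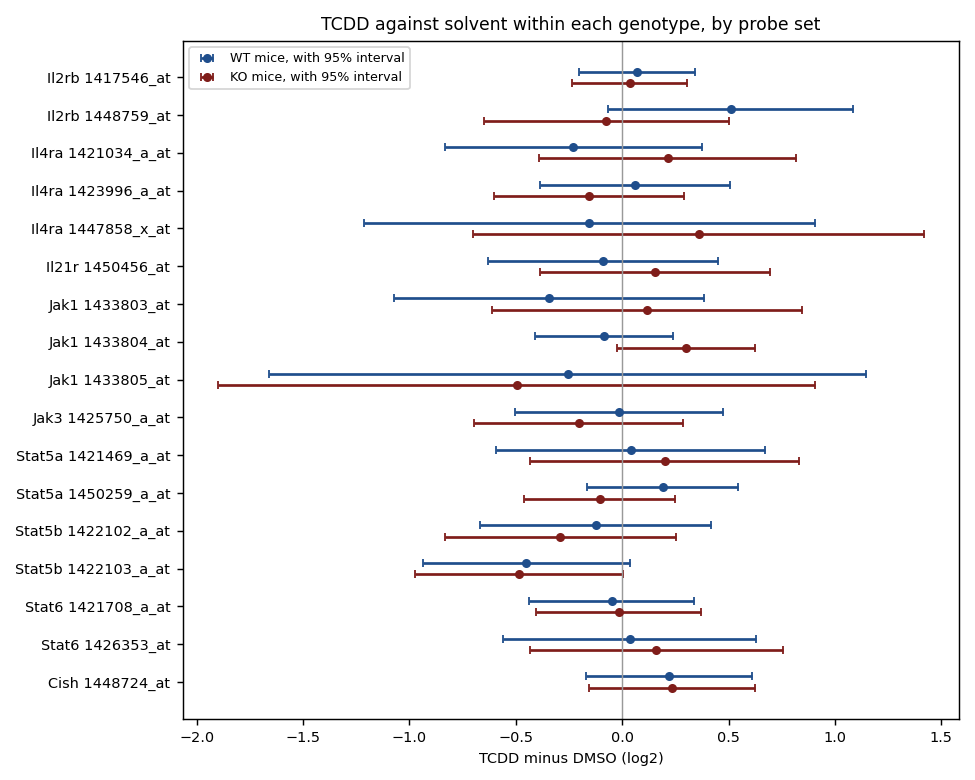
TCDD minus DMSO difference in log2 for each of the 17 probe sets in WT (blue) and KO mice (dark red), with 95% intervals from limma's model of 4 group means. The WT differences run from −0.45 to 0.51 and the KO differences from −0.49 to 0.36, and Stat5b 1422103_a_at lies below 0 in both (−0.45 and −0.48).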

How the data were processed

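The authors deposited log2 values; the submitters' processing notes name RMA and the affy package, whose versions and settings are not given in the sources used here. RNA was amplified before labelling, per the labels' protocols. The table held 22690 probe sets, and 64 Affymetrix controls were left out. All 17 member probe sets were matched by Entrez identifier to RefSeq (GRCm38.p6). Fits used limma 3.58.1 in R 4.3.3 (lmFit, eBayes) with BH adjustment over 22626 probe sets: KO against WT over 4 arrays of each, since the submitters' design pools treatments, and TCDD effects and the interaction in a model of 4 group means. Permutation tests used scipy 1.17.1. The fits were tested on simulated data. Alternatives covered normalization, dim probe sets, variance model, array weights, a replicate block, an actin covariate and left-out arrays. The members, lists and tests were chosen with earlier results of these data known. Named beside the members were, per list, called genes (up to 4) or the 2 with the smallest p; for TCDD, Cish and any member with an unadjusted p under 0.05. A planned search for genes patterned like Il2rg was not possible. P-values measure the spread between pools of 4 animals, and the number of arrays limits the precision.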

Additional observations from a re-analysis of the deposited data

Results flagged for a closer look

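Within the 4 arrays of a genotype, 3 of 34 member groups had a single array that stood apart from the other 3 (Dixon's test at its critical value of 0.829; chance alone does so in about 1 of 20 groups). Stat5b 1422102_a_at read 7.07 on KO DMSO replicate 2, against 6.47 to 6.56 on the other KO arrays. Stat6 1426353_at read 8.30 on the same array, against 8.65 to 8.72. Il4ra 1423996_a_at read 6.73 on WT DMSO replicate 2, against 6.85 to 6.87 on the other WT arrays.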

How the results depend on the processing

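Called members in KO against WT (1 of 17) numbered 0 in the model of 4 group means, from DMSO arrays alone, from TCDD arrays alone and without both WT arrays numbered 2, 2 with the actin covariate and 3 with array weights, and ranged from 0 to 2 over the arrays left out 1 at a time (0 without KO TCDD replicate 1 or 2, WT DMSO replicate 2 or WT TCDD replicate 2; 2 without WT TCDD replicate 1). The additional calls were Jak1 1433805_at and Stat5a 1421469_a_at. Called probe sets of the pathway lists (1) numbered 0 in the 4 settings that gave 0 members, 15 with the actin covariate, 7 with array weights, 3 without dim probe sets, 2 with trend and robust settings and 4 after a further quantile normalization, and ranged from 0 to 4 with single arrays left out. Over all probe sets, 631 calls became 161 in the model of 4 group means, 0 from DMSO or TCDD arrays alone, 28 without both WT arrays numbered 2, 1834 with the actin covariate, 1604 with array weights, 884 without dim probe sets and 985 after quantile normalization. With single arrays left out they ranged from 109 to 667: 119 and 109 without KO TCDD replicates 1 and 2, 362 when KO DMSO replicate 2 was left out, and 124 and 126 for replicate 2 of WT DMSO and of WT TCDD. From DMSO arrays alone limma had 1545 probe sets at an unadjusted p under 0.05 and from TCDD arrays alone 2832. The cause was not tested.

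Same-numbered deviations correlated at 0.63 between the WT groups, at 0.12 to 0.22 in 3 further pairs of groups and at −0.19 and −0.29 between KO DMSO and the WT groups, so the numbers were not taken to pair the arrays across all groups. With the replicate block, 801 probe sets, 2 members (Stat6 1421708_a_at and Jak1 1433805_at, with limma's BH adjusted p at 0.0438 and 0.0461) and 2 pathway probe sets were called. TCDD effects and the interaction gave 0 called members in all 15 alternatives each.

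Values near 0 changed sign in some settings, none of them called. Without both WT arrays numbered 2, Il4ra 1447858_x_at was −0.49, Il21r −0.058, Jak1 1433803_at 0.083 and Stat6 1426353_at −0.16. From TCDD arrays alone, Jak1 1433803_at was 0.06, Stat5a 1450259_a_at −0.02 and Il2 −0.04 (−0.035 before rounding), and from DMSO arrays alone Il4ra 1447858_x_at was −0.25 (−0.255 before rounding). Il4ra 1447858_x_at was −0.030 with array weights and −0.026 with the actin covariate. Cish in KO against WT was 0.030 after quantile normalization, 0.035 with array weights and 0.005 after median centring, and its interaction was 0.12 after quantile normalization. With single arrays left out, Il4ra 1447858_x_at ran from −0.25 to 0.20, Stat6 1426353_at from −0.043 to 0.18, Cish from −0.10 to 0.068 and the Cish interaction from −0.19 to 0.16.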

Other observations

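Likeness over the 8 arrays, looked up for both probe sets with their values known, was a Pearson correlation with the 10320 brighter probe sets of a single gene. Stat6 1421708_a_at was most like Sorcs2 (0.994), Atp13a2 (0.986) and Litaf (0.980). Jak1 1433805_at was most like Nmd3 (0.996), Armc10 (0.994) and Eif3e (0.990). These are descriptions over 8 arrays that differ in genotype and in the 3′ to 5′ actin difference, and neither was adjusted for.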
